A study of Xenopus laevis with 9 samples.

Results

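FICZ and TCDD were compared directly in XLK-WG cells, a kidney cell line of the frog Xenopus laevis, after 3 h at the same concentration of 100 nM. The comparison rests on 6 of the 9 arrays of the series, chosen by their titles: 3 arrays of cells treated with FICZ and 3 of cells treated with TCDD. The remaining 3 arrays, of cells given the solvent DMSO alone, took no part in the normalization, the filter or the test, and their levels are given beside the ligands as a background. The solvent stood at 0.25% in all 3 groups, and the labels call the arrays of each group biological replicates. Titles number the FICZ arrays 1 to 3 while the descriptions use 3 to 5; replicate numbers below follow the titles. XLK-WG is 1 line, so the replicates are cultures of the same cells.

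Both compounds bind the aryl hydrocarbon receptor (AHR), which waits in the cytoplasm with HSP90 and other chaperones until a ligand arrives. The receptor then enters the nucleus, pairs with ARNT and switches on genes such as cyp1a1, a cytochrome P450 enzyme that carries a heme group and oxidizes many planar aromatic compounds. TCDD is a chlorinated dibenzodioxin that cells break down very slowly. FICZ, a formylindolocarbazole formed from tryptophan by light, is itself a good substrate of the enzyme it induces in mammals. In frogs the AHR proteins are known to bind TCDD weakly. The frog's genome is duplicated, and the suffixes .L and .S tell the paired copies of a gene apart.

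Levels are log2 signals of Affymetrix probe sets, so a difference of 1 is a 2-fold difference. Medians of the 6 ligand arrays lay between 6.67 and 6.87 as deposited and were made equal by quantile normalization. Arrays have no read depth, and the number of arrays, 3 per group, limits the precision. The median SD within a group was 0.11 for FICZ and 0.12 for TCDD. The median standard error of the difference was 0.11. A probe set for the jellyfish protein EGFP, which has no counterpart in frog cells, read 5.71 to 5.96 on the FICZ arrays and 5.51 to 5.94 on the TCDD arrays, so frog probe sets at such levels were not shown to be above background. On the DMSO arrays the EGFP probe set read 5.58 to 6.20. Probe sets for the foreign proteins DsRed and AsRed read lower. DsRed was at 4.01 to 4.19 with FICZ and 3.94 to 4.06 with TCDD, and AsRed at 0 to 3.66 and 0 to 1.02. The EGFP level, the highest of these, is therefore a cautious bound and not the background of every probe set. Control values are given as deposited, whereas levels of frog probe sets are quantile normalized, so comparisons between them are approximate. The gap between the 3′ and 5′ probe sets of gapdh, a sign of RNA integrity, was 0.68 to 0.88 with FICZ and 0.71 to 0.93 with TCDD. Of the kidney epithelial markers, the keratin genes krt8.1.S, krt18.1.L and krt19.S stood above 12 with either ligand, whereas cdh1.S (2.65 with FICZ and 2.47 with TCDD), epcam.L (4.33 and 4.43, in the same order) and pax8.L (5.42 and 5.62) were at or below the EGFP level. The mesenchymal marker vim.L was at 13.13 with FICZ and 13.14 with TCDD.

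Over the whole table the arrays did not sort by ligand. The SD of the difference between arrays, taken over the tested probe sets, was lowest for TCDD replicates 2 and 3 (0.18). FICZ replicate 1 lay closer to TCDD replicate 3 (0.20) than to FICZ replicate 3 (0.22) or FICZ replicate 2 (0.28). TCDD replicate 1 lay closer to the first DMSO array (0.21) than to TCDD replicate 2 (0.33) or TCDD replicate 3 (0.29), and held 27.0% of the variation within the ligand groups. FICZ replicate 2 lay as far out among the ligand arrays, with its nearest, FICZ replicate 1, at 0.28. The nearest ligand array of TCDD replicate 1, FICZ replicate 3, was at 0.26. Results are given with and without TCDD replicate 1 where it changes them. Leaving it out raised the calls from 39 to 189, whereas leaving out FICZ replicate 2 lowered them to 14. A pass reached only without TCDD replicate 1 rests on that choice and is not a pass on all arrays.

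At the threshold used, few transcripts differed between the ligands after 3 h, and nearly all of these were higher with FICZ. Of 11618 probe sets tested by limma, 35 (0.301%) were higher with FICZ at an adjusted p under 0.05 and 4 (0.0344%) were lower. They include the P450 gene cyp1a1.L, the nuclear envelope gene syne1.L, the connexin gene gjc1.L, the growth factor receptor gene igf1r.S, the heme synthesis gene alas1.S and the glucocorticoid receptor gene nr3c1.L. Among the 39, 17 probe sets carried 1 gene symbol and stood for 15 genes, 14 of them higher with FICZ and 1 lower, and 22 had no gene name here. The FICZ and TCDD arrays did not overlap in any of the 39, as in 1191 of all tested probe sets (10.3%). A difference of 2-fold or more was reached by 16, of which 15 were higher with FICZ. Without TCDD replicate 1 the test called 189 probe sets (1.63%), 145 higher (1.25%) and 44 lower (0.379%), all 39 among them. With limma array weights it called 397, of which 249 were higher with FICZ and 148 lower. The balance between the directions therefore depended on the setting. By limma without the variance trend, which lets the expected spread vary with signal, 9 were called. Among named genes, only syne1.L and thbs3.L were then called (limma adjusted p 0.0083 and 0.012). All other named calls ended there, such as cyp1a1.L (0.12) and pecam1.L (0.074).

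**Figure D1:**
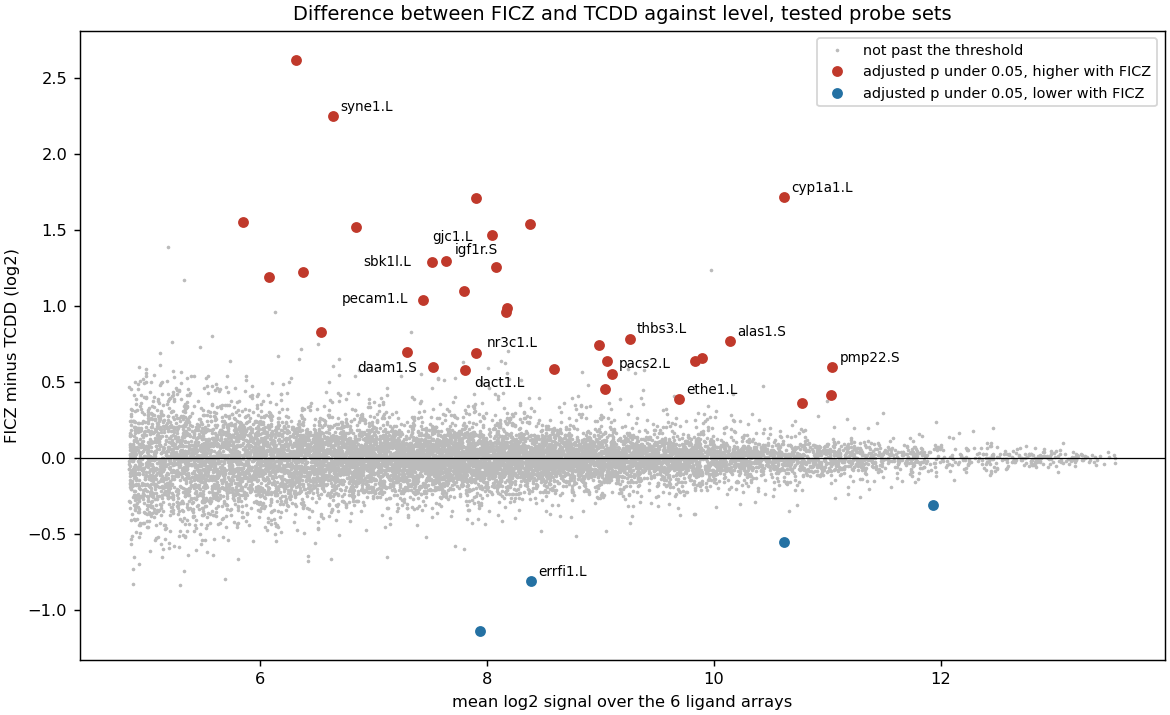
Each point is 1 of the 11618 tested probe sets: the x axis is its mean log2 signal over the 6 ligand arrays and the y axis its log2 difference, FICZ minus TCDD. Red points are the 35 probe sets higher with FICZ and blue points the 4 lower with FICZ at an adjusted p under 0.05, and named genes are labelled. Gray points spread more at low signal, and the red points all lie at or above a difference of 0.36.

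Differences had a median of -0.00 on the log2 scale, and 95% of them lay between -0.32 and 0.32. All 3 FICZ arrays stood above all 3 TCDD arrays in 597 probe sets (5.14%) and below them in 594 (5.11%), and 615 (5.29%) had an unadjusted p under 0.05. The 95% confidence interval of the difference lay within 2-fold either way for 11459 probe sets (98.6%), and within 0.5 of 0 on the log2 scale for 8817 (75.9%). These intervals are per probe set and were not adjusted for their number.

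**Figure D2:**
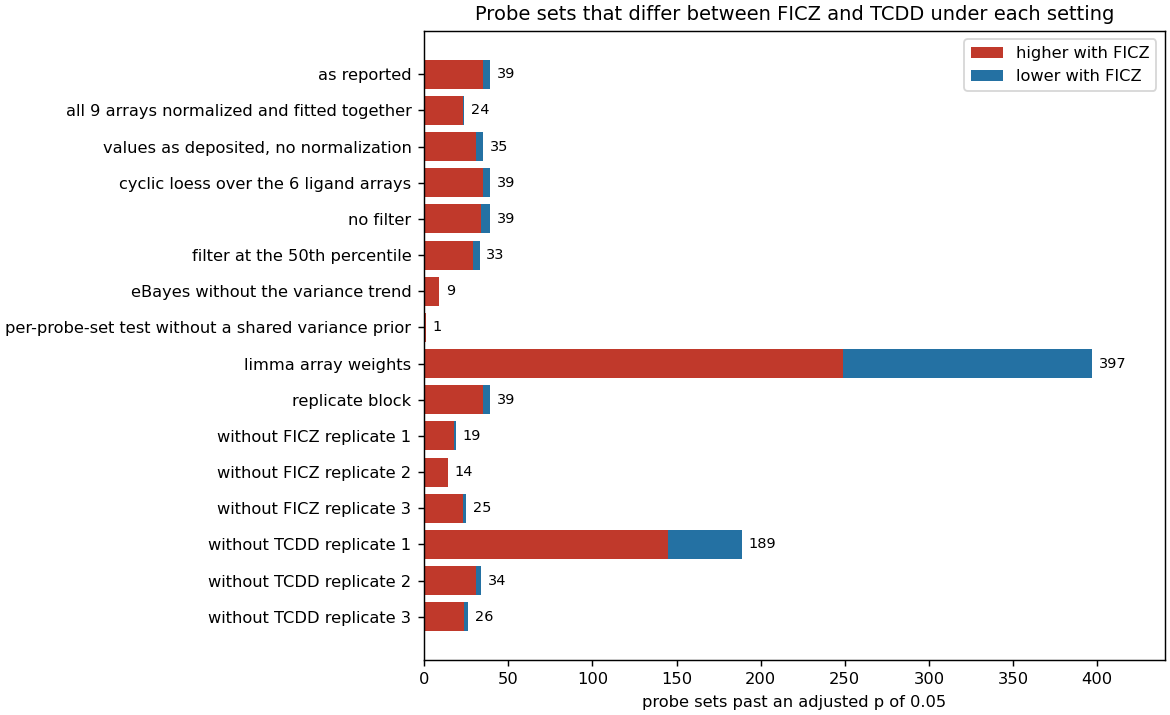
Number of probe sets past an adjusted p of 0.05 (x axis) as reported and under each of 15 alternatives, with those higher with FICZ in red and those lower with FICZ in blue. The count is 39 as reported, 189 without TCDD replicate 1, 397 with array weights and 1 by the test without a shared variance prior.

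Of the genes known as AHR targets, cyp1a1.L stood above the DMSO level on every ligand array and was higher with FICZ. Its log2 signal was 11.52, 11.48 and 11.42 on the FICZ arrays, against 10.37, 9.44 and 9.47 on the TCDD arrays. The groups did not overlap, the FICZ arrays lay close together, and TCDD replicate 1 stood above the other TCDD arrays. On the DMSO arrays it was 7.01, 6.32 and 6.60. FICZ exceeded TCDD 3.28-fold (95% confidence interval 2.44 to 4.40, limma adjusted p 0.0025). Without TCDD replicate 1 the log2 difference was 2.02, against 1.71 with it, and without FICZ replicate 2 the adjusted p was 0.053.

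For cyp1a1.S the ligands could not be separated on all arrays. It read 9.05, 9.28 and 9.03 with FICZ, against 9.25, 8.23 and 8.18 with TCDD. TCDD replicate 1 lay among the FICZ arrays and the other TCDD arrays below them. The log2 difference was 0.56 (0.06 to 1.07, limma adjusted p 0.87), so the interval runs from near equality to a 2.10-fold difference. Without TCDD replicate 1 it was 0.91 with an adjusted p of 0.00020.

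The distance between the copies of cyp1a1 within an array varied little among arrays of 1 ligand. The log2 signal of cyp1a1.L exceeded that of cyp1a1.S by 2.47, 2.20 and 2.38 on the FICZ arrays, against 1.11, 1.20 and 1.29 on the TCDD arrays. TCDD replicate 1, which was high in both copies, was therefore not set apart in this distance. The distance compares the response of a pair of probe sets and not their transcript levels, and it was computed because 1 of the copies had passed, so it is a description without a test.

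The remaining tested members of the AHR target list did not pass. Of 16 listed genes, 9 copies were measured and 7 tested, with 1 called higher and 0 lower, against 0.301% and 0.0344% of all tested probe sets. The listed targets cyp1b1, ahrr, tiparp and nqo1 were matched to no probe set, so the list covers AHR targets only in part. The amino acid transporter gene slc7a5.L had a difference of -0.21 (-0.38 to -0.04, adjusted p 0.74), with 9.68, 9.78 and 9.75 on the FICZ arrays against 9.92, 9.83 and 10.08 on the TCDD arrays. The transcription factor gene nfe2l2.L differed by 0.14, the aldehyde dehydrogenase gene aldh3a2.L by 0.19, and the glutathione transferase genes gsta1.L and gsta1.S by 0.05 and -0.01. ugt1a6.S and ido1.L lay under the filter on low signal and were not tested. The median difference of the 7 was 0.14, against -0.00 over all tested probe sets.

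Measured partners and coregulators of the receptor were close with both ligands. Of 21 listed genes, the receptor gene ahr was matched to no probe set, nor were aip, arnt2 and hsp90aa1. The level of the receptor's own transcript was therefore not compared. Of 12 tested AHR partners, chaperones and coactivators, limma called 0 (0.336% of all tested probe sets). A test of each probe set without variance shared between them also called 0. That test called 1 probe set in the whole table, so it cannot tell whether these genes differ. At an unadjusted limma p under 0.05 (5.29% of all) stood 1, ptges3.L, the p23 cochaperone of HSP90, with a difference of -0.14. arnt.L, whose protein pairs with the receptor, averaged 6.70 with FICZ and 6.92 with TCDD, a difference of -0.22 (-0.49 to 0.05). hsp90ab1.S, an HSP90 gene, averaged 12.04 with FICZ and 11.96 with TCDD. The remaining 9, copies of the coregulator genes ncoa2, ncoa3, ncoa4, ncor1 and crebbp with sp1.L and rela.L, differed by -0.17 (ncoa2.S) to 0.30 (crebbp.S, at or below the EGFP level). The interval lay within 2-fold of equality for all 12.

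Among heme genes, 1 copy of alas1 was higher with FICZ. alas1.S, which encodes the enzyme that starts and limits heme synthesis, had 10.50, 10.61 and 10.48 on the FICZ arrays, against 9.91, 9.66 and 9.71 on the TCDD arrays. The TCDD arrays overlapped with the DMSO arrays at 9.59, 9.77 and 9.73, while all FICZ arrays lay above both. The difference from TCDD was 1.71-fold (1.52 to 1.92, limma adjusted p 0.0010), and it passed whichever of the 6 arrays was left out, but not without the variance trend (adjusted p 0.074) or in an unmoderated test, which takes the spread of each probe set from its own arrays alone (0.40). Of 14 tested genes of heme synthesis and breakdown it was the 1 that passed, against 0.336% of all tested probe sets. hmox1.S, a heme oxygenase gene, which breaks heme down, came next with 0.37 (0.16 to 0.59, adjusted p 0.30, and 0.00049 without TCDD replicate 1). Later enzymes of the pathway did not pass, with differences of -0.01 (-0.16 to 0.13) for alad.S, -0.03 (-0.19 to 0.13) for urod.L and -0.04 (-0.23 to 0.16) for ppox.L. fech.L, at 5.60 with FICZ and 5.70 with TCDD, lay at the EGFP level and was not shown to be above background. alas1.L differed by 0.22, and the other 7 members (tspo.L, hmox1.L, hmox2.S, slc25a39.L, slc48a1.L, slc48a1.S and iscu.L) by -0.10 to 0.13.

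**Figure D3:**
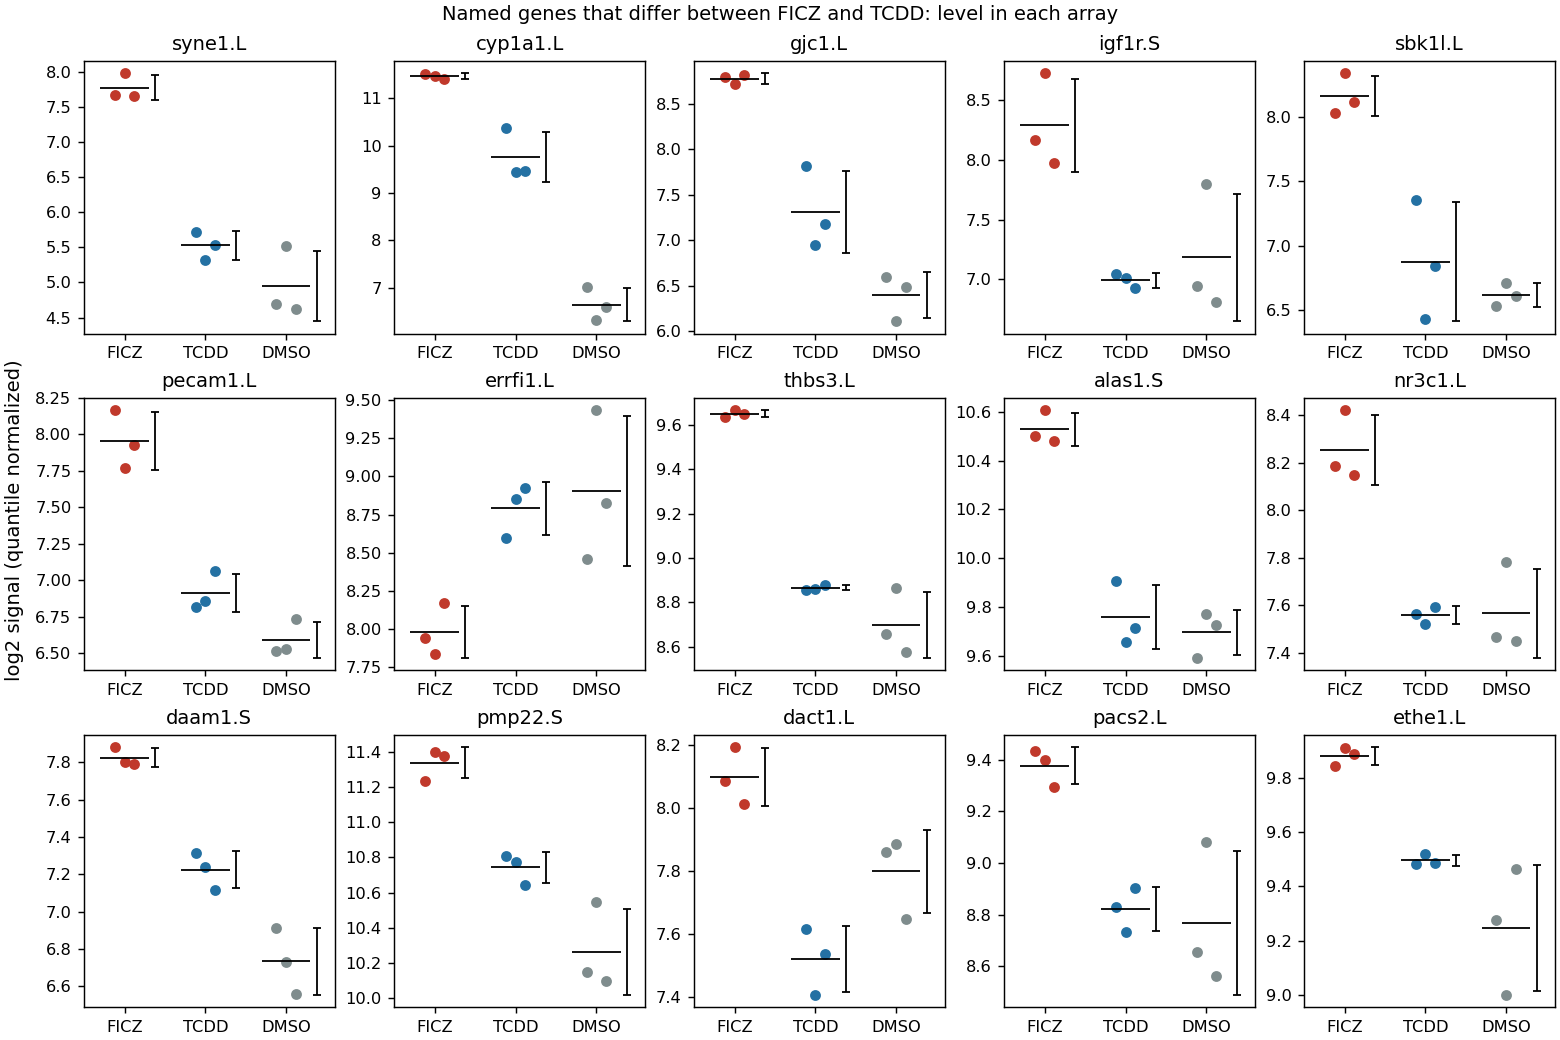
Log2 signal (y axis) in each array for the 15 named genes past the threshold, with FICZ in red, TCDD in blue and DMSO in gray; each point is 1 array, from replicate 1 on the left to replicate 3 on the right, the line is the group mean and the bar beside it the mean ± SD (n = 3). In errfi1.L the FICZ arrays lie lowest, and in the other 14 genes all 3 FICZ arrays lie above all 3 TCDD arrays; for igf1r.S the probe set with the largest difference is shown.

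The largest difference among named genes was in syne1.L, which encodes nesprin-type proteins that tie the nucleus to the cytoskeleton. It read 7.68, 7.98 and 7.66 with FICZ, against 5.72, 5.32 and 5.53 with TCDD. The DMSO arrays, at 4.70, 5.52 and 4.62, overlapped with the TCDD arrays. The difference was 4.74-fold (3.80 to 5.91, limma adjusted p 0.00011). The TCDD level is no higher than that of the EGFP probe set, so the size of this fold is uncertain. Of 13 tested nuclear envelope genes it was the 1 that passed, against 0.336% of all tested probe sets. The other members lay between -0.15 and 0.30, among them the nesprin-binding gene sun2.L at -0.14 and the lamin gene lmnb1.L at 0.22.

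gjc1.L, a connexin gene of gap junctions, showed a graded order in the probe set that passed. It stood at 8.80, 8.71 and 8.82 with FICZ, against 7.82, 6.95 and 7.18 with TCDD, and at 6.60, 6.11 and 6.49 with DMSO. No array of one group overlapped with those of another. FICZ exceeded TCDD 2.76-fold (2.10 to 3.62, limma adjusted p 0.0042). The call ended without FICZ replicate 1 or FICZ replicate 2 (highest adjusted p 0.056). Another probe set of the gene, at or below the EGFP level with 5.84 with FICZ and 5.11 with TCDD, differed by 0.73 (adjusted p 0.89). Its DMSO mean was 5.75, above that of TCDD, so the graded order was not seen there. The other tested connexin, gjb2.L, differed by -0.03.

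igf1r.S, which encodes the receptor for insulin-like growth factors, was the 1 gene with 3 probe sets past the threshold. The first had 8.17, 8.72 and 7.98 on the FICZ arrays, against 7.05, 7.01 and 6.92 on the TCDD arrays, a 2.45-fold difference (1.91 to 3.15, limma adjusted p 0.0052). The remaining probe sets were 1.98-fold (adjusted p 0.0065) and 1.95-fold (0.018) higher with FICZ. They may share sequence and are not independent measurements. FICZ replicate 2 was the highest FICZ array in all 3, and DMSO replicate 2, at 7.79 in the first, lay above every TCDD array. The call of the 1.98-fold one ended without FICZ replicate 2 (0.053), and that of the 1.95-fold one without FICZ replicate 1, FICZ replicate 2 or TCDD replicate 3 (highest adjusted p 0.17). In the rest of the insulin and IGF list, limma called 0 of 16 genes (0.336% of all tested probe sets), and 0 reached an unadjusted p under 0.05 (5.29% of all). The adapter gene irs1.L differed by 0.21 and grb2.S by -0.11. The unmoderated test also called 0 of them, but it called 1 probe set in the whole table and cannot decide this.

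nr3c1.L, the glucocorticoid receptor gene, was 8.19, 8.42 and 8.15 with FICZ, against 7.56, 7.52 and 7.59 with TCDD. The TCDD arrays were tightly grouped at the DMSO level (mean 7.56 with TCDD and 7.57 with DMSO). The difference was 1.62-fold (1.39 to 1.88, limma adjusted p 0.011), and the call ended without FICZ replicate 1, FICZ replicate 2 or TCDD replicate 3 (highest adjusted p 0.087). Of 31 tested steroid and nuclear receptor genes and their partners, no other passed (0.336% of all tested probe sets did). Values for the next members were -0.32 for the retinol dehydrogenase gene rdh10.L, 0.31 for the retinoic acid receptor gene rara.L and 0.28 for the retinoid X receptor gene rxra.L (adjusted p 0.15, 0.62 and 0.92).

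Genes of the cell surface and the matrix were also among the calls. thbs3.L, a thrombospondin gene of the extracellular matrix, had the smallest spread of the named genes, with 9.64, 9.67 and 9.65 on the FICZ arrays against 8.86, 8.86 and 8.88 on the TCDD arrays. It was 1.72-fold higher with FICZ (1.56 to 1.91, limma adjusted p 0.00030) and passed under all 15 alternatives run. Another probe set for it, at 5.95 with FICZ and 5.73 with TCDD, differed by 0.21 and did not pass. In the list of matrix, integrin and TGF-beta genes, 1 of 36 passed, against 0.336% of all tested probe sets. Next came sparc.S, which encodes a matrix protein that binds collagen, with 0.29 (adjusted p 0.13). It passed without TCDD replicate 1 (0.012), as did the collagen gene col18a1.S (0.039), so that 3 of 36 were called higher, against 1.25% of all. The 3 include thbs3.L, and the list was chosen with earlier results known, so this share is no test of the list.

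pmp22.S, a membrane protein gene known from myelin in mammals, had 11.24, 11.40 and 11.38 on the FICZ arrays against 10.81, 10.77 and 10.65 on the TCDD arrays. It was 1.51-fold higher with FICZ (1.37 to 1.67, limma adjusted p 0.0017), and both ligand groups lay above the DMSO arrays at 10.15, 10.54 and 10.10. In its list of 10 tested membrane proteins, 6 had an unadjusted p under 0.05, against 5.29% of all tested probe sets. The 6 include pmp22.S and its copy pmp22.L, and the list was chosen with earlier results known, so this share is no test of the list. The related genes emp2.L (0.42) and emp1.L (0.23) were on the higher side, and the claudin copies cldn5.S (-0.31) and cldn5.L (-0.19) on the lower side, with adjusted p values from 0.094 to 0.64. Of these, cldn5.S passed without TCDD replicate 1 (0.027).

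pecam1.L, an adhesion gene of endothelial cells in mammals, was 8.17, 7.77 and 7.93 with FICZ, against 6.82, 6.86 and 7.06 with TCDD. The groups did not overlap, and the difference was 2.06-fold (1.70 to 2.48, limma adjusted p 0.0037). Of 12 measured endothelial and blood cell markers 5 could be tested, and pecam1.L was the 1 that passed, against 0.336% of all tested probe sets. The mean signal of the 12 ran from 4.54 to 4.84 over the FICZ arrays, from 4.25 to 4.40 over the TCDD arrays and from 4.50 to 4.65 over the DMSO arrays. The leukocyte gene ptprc.L (2.74 with FICZ and 2.94 with TCDD) and the endothelial receptor genes tek.S (4.45 and 3.12, in the same order) and flt1.L (4.25 and 3.56) lay below the filter. A part of such cells in the result was not tested.

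The other 5 named genes higher with FICZ belong to none of the lists. daam1.S, a formin gene of Wnt signalling, was 1.52-fold higher (adjusted p 0.026) and ethe1.L, a mitochondrial sulfur dioxygenase gene, 1.31-fold (0.026). pacs2.L, a membrane traffic gene, was 1.47-fold higher (0.011) and dact1.L, which encodes a Dishevelled-binding protein first described in frog embryos, 1.49-fold (0.034). For dact1.L the TCDD arrays, at 7.62, 7.41 and 7.54, lay below the DMSO arrays at 7.86, 7.89 and 7.65 as well as below the FICZ arrays at 8.09, 8.19 and 8.01. sbk1l.L, named for the kinase gene sbk1, was 2.44-fold higher (0.016), with 8.03, 8.34 and 8.12 on the FICZ arrays against 7.35, 6.43 and 6.84 on the TCDD arrays, while 6 further tested probe sets of that name differed by -0.22 to 0.20 and did not pass. The calls of daam1.S, ethe1.L and dact1.L held without TCDD replicate 1 and ended without any other array (highest adjusted p 0.20, 0.18 and 0.22). That of sbk1l.L ended without any FICZ array or TCDD replicate 3 (0.18), and that of pacs2.L without FICZ replicate 1 or FICZ replicate 2 (0.11).

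The other probe sets of ethe1.L and pacs2.L pointed the same way without passing. Those of ethe1.L differed by 0.39 (adjusted p 0.30) and 0.28 (0.13), and that of pacs2.L by 0.25 (0.34). All 3 passed without TCDD replicate 1, with adjusted p values of 0.021, 0.045 and 0.034 in the same order. None passed with any other array left out (highest adjusted p 0.9995, 0.48 and 0.9995).

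Lower with FICZ was 1 named gene, errfi1.L, which encodes a feedback inhibitor of the EGF receptor in mammals. It had 7.94, 7.84 and 8.17 on the FICZ arrays against 8.60, 8.85 and 8.93 on the TCDD arrays, and 8.46, 9.43 and 8.82 on the DMSO arrays. All FICZ arrays lay below all arrays of both other groups. The log2 difference was -0.81 (-1.06 to -0.56, limma adjusted p 0.011), and the call ended without FICZ replicate 1, FICZ replicate 2 or TCDD replicate 3 (highest adjusted p 0.11). It also ended when all 9 arrays were normalized and fitted together (limma adjusted p 0.23). The 7 named genes next on the lower side did not pass on all arrays: nek6.S (-0.48, adjusted p 0.0503), cdc6.L (-0.59, 0.058), cdca7.L (-0.51, 0.079), trmt6.S (-0.48, 0.086), cldn5.S (-0.31, 0.094), dkc1.L (-0.26, 0.11) and kalrn.L (-0.30, 0.13). All but kalrn.L (0.054) passed without TCDD replicate 1, with adjusted p values of 0.024 for nek6.S, 0.015 for cdc6.L, 0.0014 for cdca7.L, 0.013 for trmt6.S, 0.027 for cldn5.S and 0.018 for dkc1.L. None of the 7 passed with any other array left out, with highest adjusted p values from 0.29 (nek6.S) to 0.69 (kalrn.L).

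The largest fitted difference of the table was in a probe set without a gene name, with 7.37, 7.65 and 7.87 on the FICZ arrays against 5.06, 5.40 and 4.58 on the TCDD arrays. This probe set was 6.13-fold higher with FICZ (4.46 to 8.43, limma adjusted p 0.00019), but its TCDD level lies below that of the EGFP probe set, so the size of the fold and its rank are uncertain. The unnamed probe set next in size was 3.26-fold higher (2.71 to 3.93), with means of 8.76 with FICZ, 7.05 with TCDD and 7.06 with DMSO, and the one after it averaged 6.63 with FICZ and 5.07 with TCDD. Its fitted fold of 2.93 is uncertain in the same way, since the TCDD level is below that of EGFP. On the lower side, 3 unnamed probe sets had log2 differences of -1.14, -0.55 and -0.31 (limma adjusted p 0.0069, 0.034 and 0.026).

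The one at -0.55 was the 1 called probe set in which the TCDD arrays lay above the FICZ arrays and both above the DMSO arrays. It had 10.35, 10.26 and 10.41 on the FICZ arrays, against 11.14, 10.77 and 10.77 on the TCDD arrays, and 9.86, 9.74 and 10.01 on the DMSO arrays. The 3 groups did not overlap. The interval of the difference was -0.76 to -0.35, and the call ended without any 1 of the FICZ arrays (highest adjusted p 0.29).

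Beside the DMSO arrays, the called probe sets took a few arrangements, given here as a description since the TCDD and FICZ arrays enter each of them. In 11 of the 35 probe sets higher with FICZ, the TCDD arrays also lay above all DMSO arrays without overlap. Among these were cyp1a1.L, gjc1.L, pecam1.L, daam1.S, pmp22.S and ethe1.L. In 21 the FICZ arrays lay above all DMSO arrays while the TCDD arrays overlapped with them, among them syne1.L, igf1r.S, sbk1l.L, thbs3.L, alas1.S, nr3c1.L and pacs2.L. In 2 unnamed probe sets both ligands overlapped with DMSO, and dact1.L was described above. Of the 4 lower with FICZ, 3 had FICZ arrays below all DMSO arrays and TCDD arrays that overlapped with them. Such arrangements were not counted over all tested probe sets, so these counts have no background and may not be particular to the calls. Probe sets were called by their FICZ and TCDD arrays, so the place of these arrays beside DMSO is not independent of the calls. The titles of the DMSO arrays carry the tag CH, whose meaning is not known here and which the ligand titles lack.

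TCDD replicate 1 was the highest of the TCDD arrays in 21 of the 35 probe sets higher with FICZ, TCDD replicate 3 in 9 and TCDD replicate 2 in 5. Among the FICZ arrays replicate 2 was the highest in 20, replicate 3 in 8 and replicate 1 in 7. FICZ replicate 2 also held the lowest median as deposited and 21.3% of the variation within the ligand groups. How often each array was the highest over all tested probe sets was not counted, so these counts may not be particular to the calls. The part of these arrays in the differences was not tested beyond leaving each of them out.

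**Figure D4:**
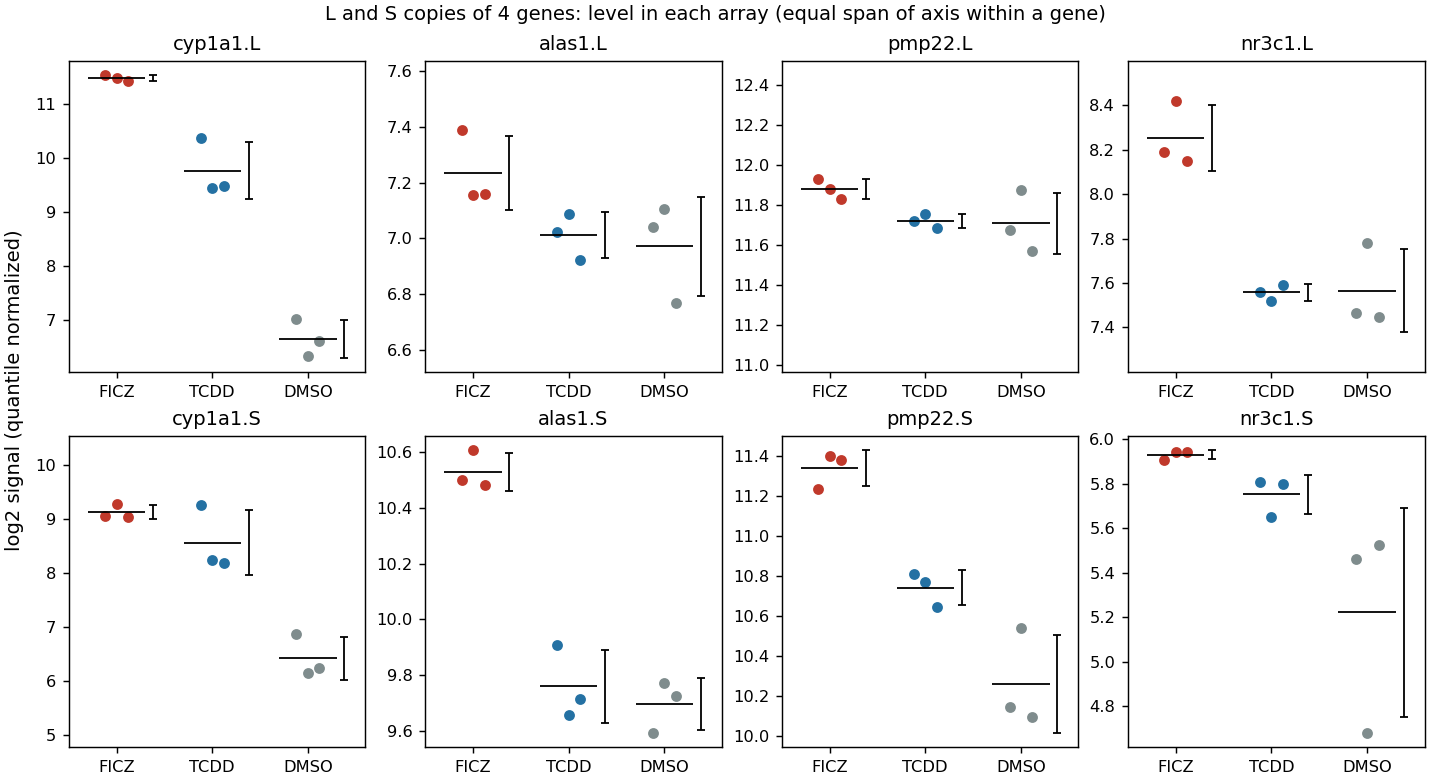
Log2 signal (y axis) per array of the L copy (top) and the S copy (bottom) of cyp1a1, alas1, pmp22 and nr3c1, with FICZ in red, TCDD in blue and DMSO in gray; lines are means and bars mean ± SD (n = 3), and the axis spans the same range for both copies of a gene. The gap between the FICZ and TCDD means is wider in cyp1a1.L, alas1.S, pmp22.S and nr3c1.L than in the other copy.

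Both copies of a gene were tested for 761 genes, and in 4 of these 1 copy passed, while in 0 both did. Of all tested probe sets 0.336% were called. With calls so rare, these counts cannot tell whether the copies of a gene respond differently. The other copy was higher with FICZ in all 4 without passing: cyp1a1.S by 0.56, alas1.L by 0.22 (adjusted p 1.00), pmp22.L by 0.16 (0.37) and nr3c1.S by 0.18 (1.00). All 3 FICZ arrays lay above all 3 TCDD arrays in alas1.L, pmp22.L and nr3c1.S, as they did in 5.14% of all tested probe sets. The within-array distance between alas1.S and alas1.L was 3.11, 3.45 and 3.32 on the FICZ arrays, against 2.88, 2.57 and 2.79 on the TCDD arrays. nr3c1.S, at 5.93 with FICZ and 5.75 with TCDD, lay at the EGFP level.

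In the lists of detoxification and stress genes no member passed, against 0.336% of all tested probe sets. For lists of this size a count of 0 is near that share. Of 16 tested genes of the P450 system, phase II enzymes and transporters, 4 had an unadjusted p under 0.05, all on the higher side, against 5.29% of all tested probe sets on either side. abcb1.L, an efflux transporter gene, differed by 0.45 (0.22 to 0.68, adjusted p 0.17), with 9.49, 9.72 and 9.59 on the FICZ arrays against 9.36, 8.96 and 9.13 on the TCDD arrays. The glutathione transferase genes gsto1.S and gstp1.L differed by 0.37 (adjusted p 0.15) and 0.39 (0.69), and the P450 gene cyp4b1.L by 0.43 (0.86). por.L, the P450 reductase gene, which passes electrons to all P450 enzymes of the endoplasmic reticulum, differed by 0.14 (-0.00 to 0.28).

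Of 33 tested NRF2 and oxidative stress genes, 23 had positive differences. The median of the list was 0.04, against -0.00 over all tested probe sets. The largest in size was 0.18 for gpx1.L, a gene of the peroxide-reducing enzymes, with an adjusted p of 0.15. Of 26 heat shock and ER stress genes, limma called 0 (0.336% of all tested probe sets). At an unadjusted p under 0.05 (5.29% of all) stood 3, namely sesn2.L (0.46), hsf2.L (-0.33) and hsph1.L (-0.22). The unmoderated test called none of the genes in these 3 lists, but it called 1 probe set in the whole table and cannot decide this. Of 28 hypoxia response genes 0 passed (0.336% of all tested probe sets did). An unadjusted p under 0.05 (5.29% of all) was reached by 2, the glucose transporter gene slc2a1.L (-0.31) and the lactate dehydrogenase gene ldha.L (0.29). Without TCDD replicate 1, 2 of the 16 detoxification genes passed on the higher side (abcb1.L and gsto1.S), 2 of the 33 NRF2 genes (gpx1.L and sqstm1.L), 1 of the 26 stress genes (herpud1.S) and 1 of the 28 hypoxia genes (ldha.L), against 1.25% of all tested probe sets on that side.

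DNA replication and cell cycle genes did not pass, where 0.336% of all tested probe sets did. A count of 0 among 68 genes is near that share. Of 68 tested, 13 had an unadjusted p under 0.05, against 5.29% of all tested probe sets. Of the 13, 9 were lower with FICZ and 4 higher, and the median of the list was -0.03. cdc6.L, which loads the replicative helicase, had 7.42, 7.67 and 7.41 on the FICZ arrays against 8.02, 8.24 and 8.02 on the TCDD arrays. The helicase subunit genes mcm5.L, mcm4.S and mcm2.L differed by -0.42, -0.37 and -0.23 (adjusted p 0.14, 0.24 and 0.24). The cyclin gene ccnd1.S was among the higher ones with 0.33 (0.34). Without TCDD replicate 1, cdc6.L, cdca7.L and mcm5.L passed on the lower side, 3 of 69 tested against 0.379% of all, and ccnd1.S on the higher side.

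Of 35 immediate early and growth response genes none passed, against 0.336% of all tested probe sets, and a count of 0 is near that share. An unadjusted p under 0.05 was reached by 6, against 5.29% of all tested probe sets. Among them the inhibitor of differentiation genes id3.S, id2.L and id4.S differed by 0.47, 0.24 and -0.36, and dusp6.L, a phosphatase gene that restrains ERK signalling, differed by -0.41 (adjusted p 0.32). jund.S, an AP-1 gene, read 8.15, 8.15 and 8.30 on the FICZ arrays against 8.36, 7.29 and 7.45 on the TCDD arrays, so that TCDD replicate 1 lay above the FICZ arrays. Its difference was 0.50 (adjusted p 0.94), and 0.83 (0.00073) without that array. Then 5 genes of the list passed on the higher side (jund.S, egr1.L, zfp36.L and both id3 entries), against 1.25% of all tested probe sets, and dusp6.L on the lower side, against 0.379%.

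Of 11 circadian clock genes none passed, against 0.336% of all tested probe sets. The largest difference was that of dbp.L, a clock output factor, with 1.17 (0.69 to 1.65, adjusted p 0.063, and 0.032 without TCDD replicate 1). It read 6.02, 5.94 and 5.80 on the FICZ arrays against 4.42, 4.67 and 5.17 on the TCDD arrays, near the EGFP level with FICZ and below it with TCDD. Along with dbp.L, 2 other probe sets differed by 2-fold or more without passing, and both were picked out after their values were seen. The cytokine signalling inhibitor gene socs3.L had 10.50, 10.48 and 10.79 on the FICZ arrays against 9.83, 8.39 and 9.83 on the TCDD arrays (adjusted p 0.23, and 0.021 without TCDD replicate 1), and an unnamed probe set differed by 1.39 (0.70, and 0.049 without that array). Both dbp.L and socs3.L passed with either of 2 arrays left out, TCDD replicate 1 being 1 of them (lowest limma adjusted p 0.032 and 0.0022). With single arrays left out, the unnamed probe set passed only without TCDD replicate 1. Over all settings it passed in 2 of 14, so also in 1 that kept every array. With other arrays left out the adjusted p reached 0.37 for dbp.L, 0.78 for socs3.L and 0.9997 for the unnamed probe set.

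Of 69 tested ribosomal protein genes, none passed (0.336% of all tested probe sets did), and all differences lay between -0.09 and 0.10. Their mean signal was high, at 12.55 to 12.56 over the FICZ arrays and 12.54 to 12.56 over the TCDD arrays. Whether the normalization narrowed differences at such levels was not tested. Of 11 kidney epithelial, 9 fibroblast and 8 muscle and nerve markers, limma called 0, against 0.336% of all tested probe sets. At an unadjusted limma p under 0.05 stood 0, against 5.29% of all. Counts of 0 among so few genes are near these shares. The unmoderated test called 0 as well, but it called 1 probe set in the whole table and cannot decide this. The keratin gene krt19.S passed without TCDD replicate 1 (adjusted p 0.015). The fibroblast markers were lower with FICZ in 8 of 9, with a median of -0.06, against -0.00 over all tested probe sets. The FICZ and TCDD arrays overlapped in all 9 fibroblast markers. Their mean signal ran from 7.55 to 7.76 over the FICZ arrays and from 7.67 to 7.86 over the TCDD arrays.

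**Figure D5:**
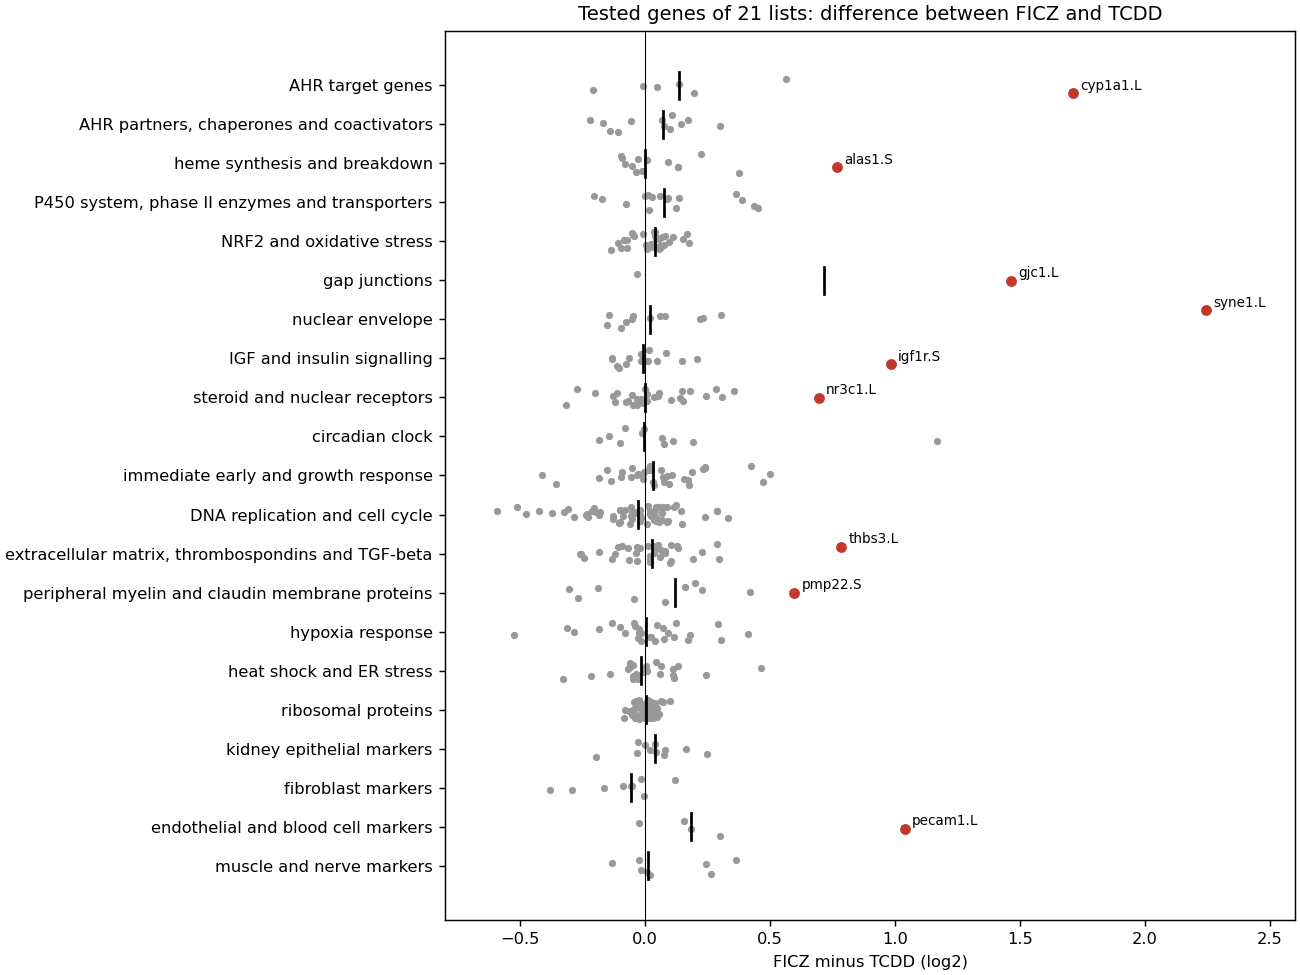
Log2 difference, FICZ minus TCDD (x axis), for each tested gene of 21 lists; each point is a gene, red where the adjusted p is under 0.05, and the black line is the list's median. Called genes stand singly to the right of their lists, while the points of ribosomal proteins lie between -0.09 and 0.10.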

How the data were processed

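The deposited table holds the authors' processed values for 15611 probe sets on 9 arrays. Per the submitters' processing notes, GCOS was used; its version, algorithm and scaling target are not given here. As for the unit, the deposited values were read as log2 because the highest, 13.627, is 12651 if log2 and 828192 if a natural log. Their floor is 0, reached by 20 to 52 probe sets per array, and detection calls were not used here. Probe sets were named by the platform annotation, updated through RefSeq gene identifiers: of 15491 without the 120 controls, 9304 had 1 symbol, 195 several and 5992 none. No probe or promoter sequences were used here, and no coordinates are given.

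The 6 ligand arrays were quantile normalized, and DMSO arrays were mapped onto the same quantiles. Probe sets whose mean fell below the 25th percentile (4.85) were left out. The ligand means were fitted in R 4.3.3 by limma 3.58.1 (lmFit and eBayes, trend=TRUE), on 4 residual and a median of 6.88 prior degrees of freedom. P-values were two-sided, with Benjamini-Hochberg adjustment over 11618 probe sets, and those under 0.05 were called. The smallest p of an exact permutation test with 3 arrays each is 0.1. Tables and figures used Python 3.11.15, pandas 2.3.3, numpy 2.4.6 and matplotlib 3.10.9. In simulated arrays drawn from the measured levels and variances, 49.3% of 67 changes of 1.5-fold, 83.6% of 67 of 2-fold and 89.4% of 66 of 4-fold were called, with 8 false calls. The noise was independent for each probe set and array. A deviation shared by many probe sets of an array was not simulated, so these rates may not hold for the real arrays.

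The comparison and the lists were chosen with earlier results of these data known. A list's count set beside the share over all tested probe sets is therefore a description and not a test. Lists are given by counts and medians, each gene by its probe set with the highest mean. Named are all calls with 1 symbol, up to 3 unnamed calls per direction, the next by p until 8 per direction, all tested AHR target genes, AHR partners and heme genes (the less changed by range), and up to 5 genes by p of each other list. Title numbers did not pair the arrays: same-numbered FICZ and TCDD arrays had correlations of deviations of -0.27, -0.06 and 0.00.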

Additional observations from a re-analysis of the deposited data

How the results depend on the processing

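The count of 39 differing probe sets depended on how the spread was estimated and on single arrays. It was 24 when all 9 arrays were normalized and fitted together, 9 by eBayes without the variance trend, 1 (thbs3.L) by an unmoderated test of each probe set and 397 with array weights, which gave TCDD replicate 3 a weight of 7.89 and TCDD replicate 1 one of 0.28. With 1 array left out it ran from 14, without FICZ replicate 2, to 189, without TCDD replicate 1. Leaving out FICZ replicate 1 gave 19, FICZ replicate 3 gave 25, TCDD replicate 2 gave 34 and TCDD replicate 3 gave 26. Of the 39, 24, 9, 1 and 39 were shared in the first 4 of these refits, in that order, and 14 passed with any 1 array left out, 6 of them with a gene symbol. The difference of cyp1a1.L, 1.71, did not pass without the trend (adjusted p 0.12) or unmoderated (0.61), and ran from 1.55 to 2.02 with 1 array left out. That of cyp1a1.S passed with array weights (difference 0.87, limma adjusted p 0.0010) and without TCDD replicate 1, and ran from 0.37 to 0.91. No sign of a called probe set changed in any setting. Over the refits of the single called probe sets other than cyp1a1.L, 389 values stayed past the threshold and 175 did not. cyp1a1.L itself passed in 12 of 15 settings. The replicate block by title number, whose pairing the data do not bear out, called 39 probe sets, 32 of them shared, with 1.71 for cyp1a1.L and 0.56 for cyp1a1.S. The cause of these changes was not tested.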
